A study of Mus musculus with 2 samples.

Results

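CC chemokines are small secreted proteins that draw leukocytes along a gradient by binding G protein-coupled receptors on the cell surface. The monocyte chemoattractant ligands are *Ccl2*, *Ccl7*, *Ccl8* and *Ccl12*. Of these, *Ccl2*, *Ccl7* and *Ccl12* signal largely through *Ccr2*, the receptor that brings monocytes out of the bone marrow and into tissue. The macrophage inflammatory protein ligands *Ccl3* and *Ccl4* and the ligand *Ccl5* draw myeloid cells and activated lymphocytes, and *Ccl3* and *Ccl5* bind *Ccr1*, a receptor of myeloid cells. In inflamed salivary glands such ligands can come from resident macrophages, from stroma or from the infiltrating lymphocytes themselves.

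The 9 genes described here are 7 ligands (*Ccl2*, *Ccl3*, *Ccl4*, *Ccl5*, *Ccl7*, *Ccl8* and *Ccl12*) and 2 receptors (*Ccr1* and *Ccr2*), taken by symbol from the 50768 genes counted. All 9 were detected in both libraries. The study compared salivary glands of NOD/ShiLtJ mice, an inbred strain that develops lymphocytic foci in the glands and autoimmune diabetes, with glands of CD1 mice, an outbred strain used as the control. Each strain gave 1 single-cell RNA sequencing (scRNAseq) library from untreated female mice at 20 weeks of age, made from submandibular glands with the adjoining sublingual glands, pooled over 4 mice per strain by the paper and over 3 by the sample labels. Epithelial and red blood cells were removed with antibodies to EpCAM and Ter119, so shares of lineages are shares of what was left. With 1 library per strain there was no replicate and no test was possible. Every interval below is a 95% interval for counting error only, and strain cannot be told apart from library, pool or dissociation.

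The 6500 NOD and 7014 CD1 barcodes with at least 500 unique molecular identifiers (UMIs) and at least 300 genes held 43439635 and 49420810 UMIs. Barcodes were placed in a lineage by the number of different genes of 14 fixed marker lists with a UMI, and 18 barcode sequences occurred in both libraries. Macrophage-like barcodes, called macrophages below, numbered 670 in NOD and 2791 in CD1, T-like barcodes (T cells) 1932 and 91, and NK-like barcodes (NK cells) 460 and 336. Those at the minimum of 3 markers were 82 and 255 among macrophages, 117 and 5 among T cells and 41 and 7 among NK cells. Among the 10 genes with the highest fold over the other lineages, each of these 3 classes had 2 to 5 genes of its own list and 0 of another. Barcodes with nearly equal numbers of markers of related lists were kept apart as T/NK (270 NOD, 23 CD1) and macrophage/monocyte (12 NOD, 10 CD1), and 380 NOD and 392 CD1 barcodes with other combinations were classed as mixed. Macrophages were shallower in NOD, with a median of 3046.5 UMIs against 7105 in CD1, whereas NK cells had 8089 and 9537.5, T cells 6568.5 and 8124, and endothelial cells 4998 and 6146. The 14 stress-response genes that dissociation can raise summed to 3039 UMIs per 1000000 UMIs of the class (CPM) in NOD and 3161 CPM in CD1 macrophages, to 1678 and 1429 CPM in NK cells, and to 1363 and 1014 CPM in T cells.

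The ligand genes lie in a pair of groups on chromosome 11 of the RefSeq table for GRCm38.p6. *Ccl2*, *Ccl7*, *Ccl12* and *Ccl8* followed each other with only *Ccl11* among them, and *Ccl5*, *Ccl3* and *Ccl4* lay further along with *Ccl9* and *Ccl6* between *Ccl5* and *Ccl3*. *Ccr1* and *Ccr2* were neighbours on chromosome 9, with *Ccr1l1* and *Ccr3* between them. Upstream sequences were held for 5 of the 9 genes (*Ccl3*, *Ccl8*, *Ccl12*, *Ccr1* and *Ccr2*). The 250 bases before the annotated start are shown for *Ccl12* and *Ccl8*, which were both higher in NOD macrophages, and for *Ccr1*, which was lower there. They are the C57BL/6J reference of RefSeq on GRCm38.p6, 5′ to 3′ on the strand of the gene, and not sequence of the NOD or CD1 mice. *Ccl12* is chr11:82101595-82101844 on the plus strand, *Ccl8* is chr11:82114935-82115184 on the plus strand, and *Ccr1* is chr9:123968693-123968942 on the minus strand. Capitals mark matches to the motifs named after the sequences.
Ccl12: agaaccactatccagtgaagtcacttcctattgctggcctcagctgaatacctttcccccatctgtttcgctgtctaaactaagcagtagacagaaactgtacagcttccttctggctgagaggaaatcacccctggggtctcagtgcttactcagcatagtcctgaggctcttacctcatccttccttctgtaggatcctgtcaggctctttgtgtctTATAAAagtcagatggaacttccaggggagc
Ccl8: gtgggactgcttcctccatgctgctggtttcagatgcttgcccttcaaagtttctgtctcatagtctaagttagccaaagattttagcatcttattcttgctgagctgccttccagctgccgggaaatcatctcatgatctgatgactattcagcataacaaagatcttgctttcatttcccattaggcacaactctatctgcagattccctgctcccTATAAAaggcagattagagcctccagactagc
Ccr1: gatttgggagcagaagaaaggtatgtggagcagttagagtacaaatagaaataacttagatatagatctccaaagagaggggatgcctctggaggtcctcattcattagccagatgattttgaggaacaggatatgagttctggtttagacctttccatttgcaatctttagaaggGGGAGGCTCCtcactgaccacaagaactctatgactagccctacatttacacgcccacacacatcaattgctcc

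*Ccl12* and *Ccl8* each had a TATAAA, starting 31 and 32 bases before the start of the gene, and *Ccr1* had a match to the NF-kB consensus starting 74 bases before it. TATAAA occurred in 12.4% and the NF-kB consensus in 7.25% of 32851 such windows over all genes, searched on both strands. The interferon-type motif (GAAA, any 2 bases and GAAA again, 2.98% of windows) and the STAT-type motif TTCNNNGAA (7.02%) had no match in the 5 windows, and *Ccl3* and *Ccr2* held none of the 4 motifs. Set side by side at their TATAAA without gaps, the 100 bases before it in *Ccl12* and *Ccl8* were identical at 32 positions.

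In macrophages, the 4 monocyte chemoattractant ligands, *Ccl5* and *Ccr2* were all at least 2-fold higher in NOD, *Ccr1* was lower, and *Ccl3* and *Ccl4* were close to their CD1 level. Thus 6 of the 9 genes were at least 2-fold higher and 1 of 9 was at least 2-fold lower in NOD. Among all 14199 genes with at least 20 UMIs in macrophages, 7.18% were at least 2-fold higher and 5.6% at least 2-fold lower. The median log2 ratio of NOD over CD1 was 2.10 over the 9 genes and 0.05 over all genes.

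**Figure D1:**
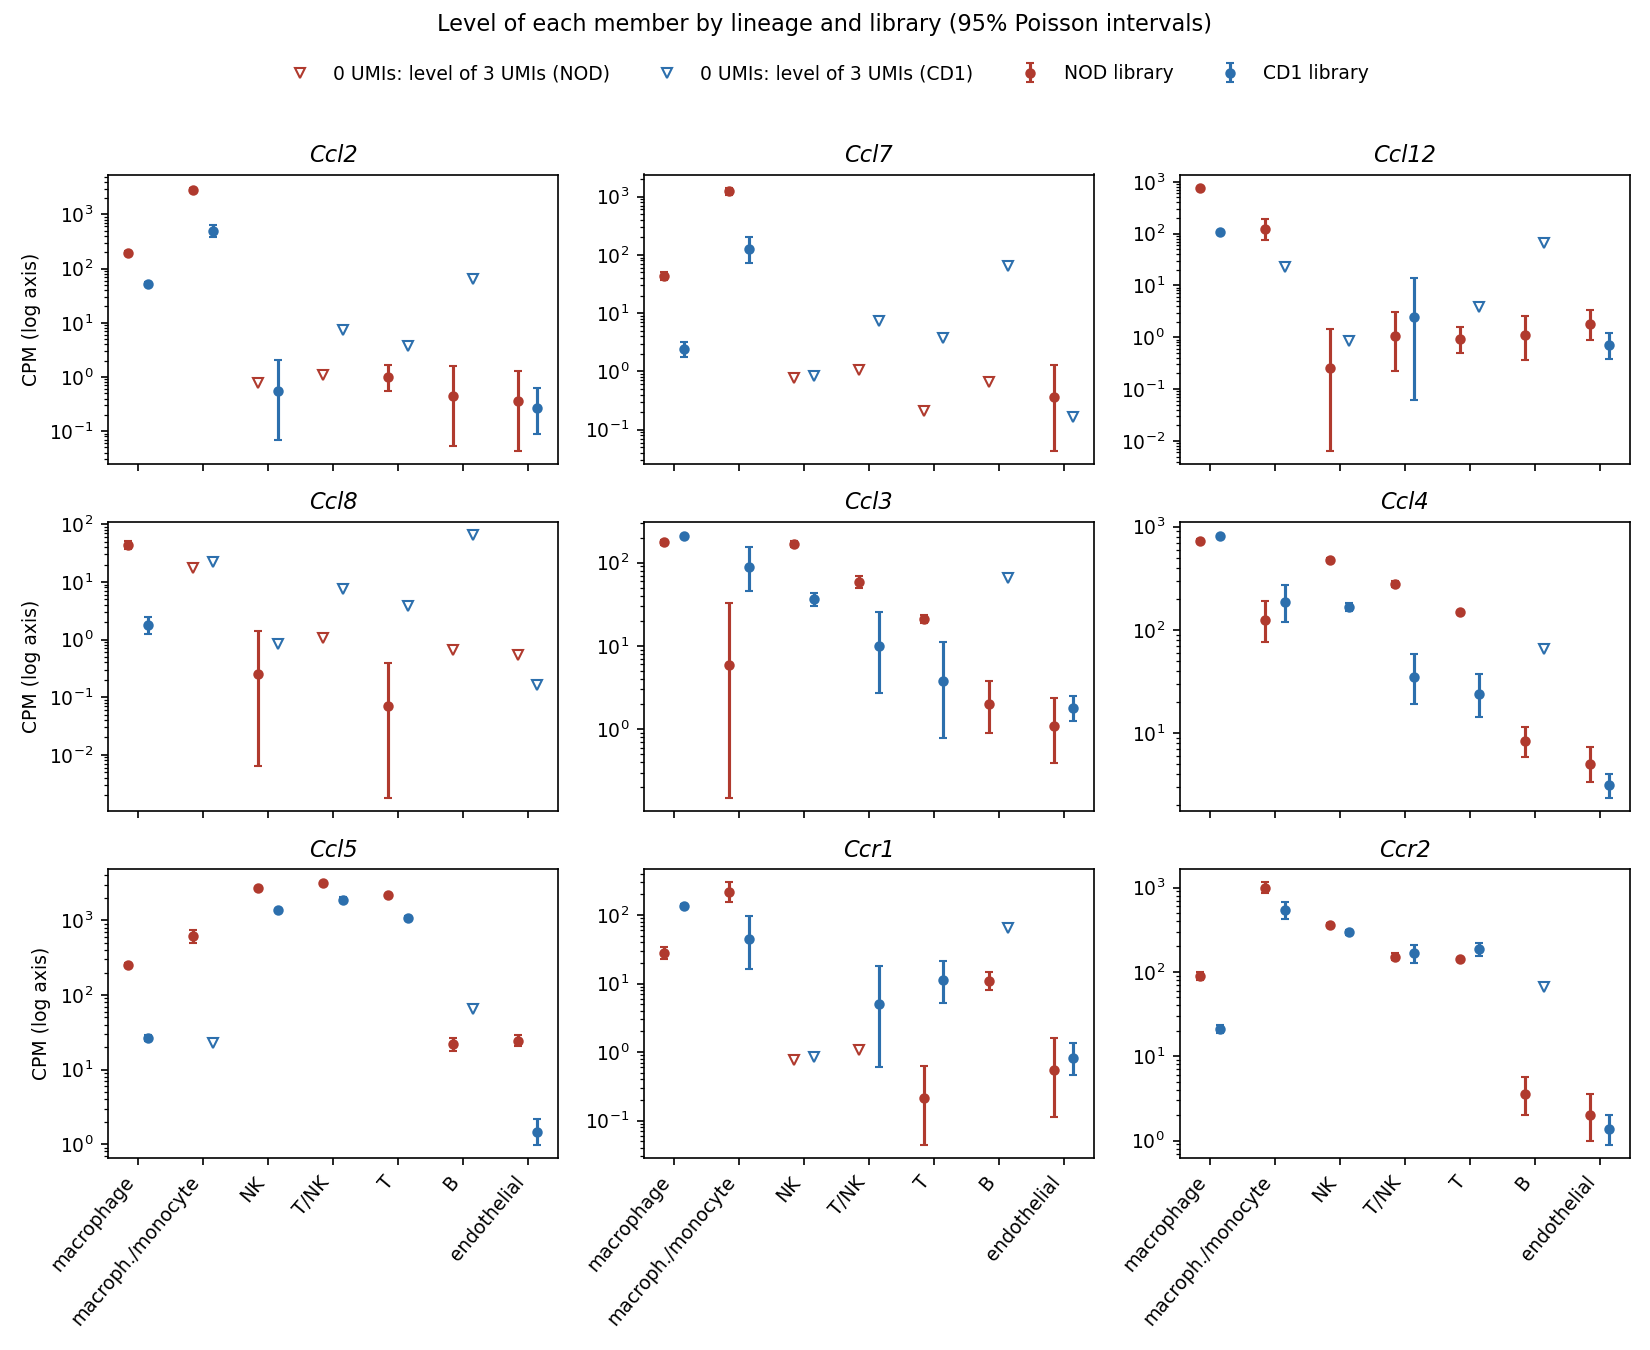
Level of each gene (CPM, log axis) in 7 classes of barcodes in the NOD and CD1 libraries, with 95% Poisson intervals; open triangles mark classes with 0 UMIs at the level that 3 UMIs would give. Among these 7 classes, *Ccl2* and *Ccl7* sat in macrophages and macrophage/monocyte barcodes and *Ccl8* and *Ccl12* mainly in macrophages. *Ccl5* was above 1000 CPM in T, T/NK and NK cells of both libraries. Fibroblasts, which also held *Ccl2* and *Ccl8*, are not drawn.

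*Ccl12*, a ligand of *Ccr2* in mice, rested on the most UMIs among the 6 genes at least 2-fold higher in NOD macrophages. It had 2754 UMIs in NOD macrophages and 2064 in CD1 macrophages, although NOD had fewer of these barcodes. The level was 742 CPM (715 to 770) in NOD and 108 CPM (104 to 113) in CD1, a log2 ratio of 2.77 (2.69 to 2.86). The 2 intervals did not overlap. After each barcode was thinned to 500 UMIs, 20.4% of NOD macrophages (17.5 to 23.7) and 4.26% of CD1 macrophages (3.55 to 5.08) held a *Ccl12* UMI, and without thinning 46.9% and 26.3% did. Endothelial cells, which should lack it, had 1.81 CPM in NOD and 0.709 CPM in CD1. The 10 macrophages with most *Ccl12* held 32.5% of its UMIs in NOD and 17% in CD1, so most of the level lay outside the richest barcodes.

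*Ccl2*, the main monocyte attractant in most tissues, was more concentrated. Macrophages held 730 UMIs in NOD and 1006 in CD1, at 197 CPM (183 to 212) and 52.9 CPM (49.7 to 56.2), a log2 ratio of 1.90 (1.76 to 2.03). Thinned to 500 UMIs, 4.63% of NOD and 1.54% of CD1 macrophages held a UMI. The 10 richest barcodes accounted for 48.5% of the macrophage UMIs in NOD and 21.3% in CD1. A further 483 of the 1414 NOD *Ccl2* UMIs lay in the 12 macrophage/monocyte barcodes, against 66 of 1199 in the 10 such CD1 barcodes. These classes had 2857 CPM and 492 CPM, yet 1 NOD barcode held 411 of the 483 UMIs and 1 CD1 barcode held 65 of the 66.

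*Ccl7*, which lies beside *Ccl2* and also binds *Ccr2*, came from even fewer barcodes. Macrophages had 162 UMIs in NOD and 46 in CD1, at 43.7 CPM (37.2 to 50.9) and 2.42 CPM (1.77 to 3.23), and the macrophage/monocyte class had 210 and 17 UMIs. The barcode that held 411 *Ccl2* UMIs held 207 of the 210 *Ccl7* UMIs as well. It had 24132 UMIs in all, 5 macrophage and 5 monocyte markers, 34 *Ccr2* UMIs and 0 *Ccl3* and *Ccl4* UMIs. The second barcode was a macrophage of 15333 UMIs with 98 *Ccl2*, 89 *Ccl7*, 89 *Ccl12*, 90 *Ccl4* and 374 *Ccl5* UMIs, 0 *Ccr2* UMIs, and 6 macrophage, 1 T and 1 NK markers. Together these 2 barcodes held 36% of all *Ccl2* and 76.9% of all *Ccl7* UMIs of the NOD library, whereas the top 2 of CD1 held 10.7% and 23.6%.

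The difference between the libraries in *Ccl7* therefore rested in part on single barcodes, and that in *Ccl2* less so. Over macrophages and macrophage/monocyte barcodes together, the log2 ratio was 2.48 for *Ccl2* and 4.87 for *Ccl7*. Without the top 2 barcodes of each library it was 1.89 (1.75 to 2.04) for *Ccl2* and 3.04 (2.49 to 3.60) for *Ccl7*, from 76 NOD and 46 CD1 UMIs. In macrophages alone, *Ccl7* went from a log2 ratio of 4.17 (3.69 to 4.68) to 3.31 when the richest barcode of each library was left out, to 2.83 as the mean of the CPM of each barcode, and to 2.93 when barcodes were thinned to 2000 UMIs.

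*Ccl8*, a ligand linked to resident macrophages and to fibroblasts, was rare. NOD macrophages had 161 UMIs in 22 barcodes and CD1 macrophages 34 UMIs in 10, at 43.4 CPM (36.9 to 50.6) and 1.79 CPM (1.24 to 2.50), a log2 ratio of 4.60 (4.06 to 5.18). It fell to 3.95 among barcodes with at most 10% mitochondrial UMIs, to 3.95 among those with at least 6 macrophage markers and to 3.90 after thinning to 2000 UMIs, and was 6.05 as a mean over barcodes. Fibroblasts were the other source, with 17 UMIs in 6 of 51 NOD barcodes and 11 UMIs in 3 of 13 CD1 barcodes (35.6 CPM, 20.8 to 57.0, and 98 CPM, 48.9 to 175). The log2 ratio there was -1.46 (-2.64 to -0.22), so the direction in fibroblasts was opposite to that in macrophages, at 28 UMIs in all. *Ccl8* was not found in the macrophage/monocyte class (0 UMIs in both libraries).

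*Ccl3* and *Ccl4*, the macrophage inflammatory protein ligands, were the macrophage ligands that barely differed between the libraries. *Ccl3* had 650 UMIs and 175 CPM (162 to 189) in NOD macrophages and 3974 UMIs and 209 CPM (202 to 216) in CD1 macrophages, a log2 ratio of -0.25 (-0.38 to -0.13). *Ccl4* had 2704 UMIs and 729 CPM (701 to 757) in NOD and 15607 UMIs and 820 CPM (807 to 833) in CD1, a log2 ratio of -0.17 (-0.23 to -0.11). Thinned to 500 UMIs, 16.3% of NOD and 20.3% of CD1 macrophages held a *Ccl4* UMI.

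In lymphocytes the same 2 ligands were higher in NOD. NK cells had 654 *Ccl3* UMIs in NOD and 130 in CD1, at 168 CPM (155 to 181) and 36.4 CPM (30.4 to 43.2), a log2 ratio of 2.21 (1.94 to 2.49). *Ccl4* in NK cells stood at 478 CPM (457 to 500) and 166 CPM (153 to 180), a log2 ratio of 1.52 (1.39 to 1.66). When mixed barcodes were given to the lineage with most markers, these ratios were 1.37 and 0.95, and with lineages from joint clusters they were 1.62 and 1.09.

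T cells showed the same direction from few CD1 molecules. They had 2081 *Ccl4* UMIs in NOD and 19 in CD1, at 148 CPM (141 to 154) and 24.0 CPM (14.5 to 37.5), a log2 ratio of 2.62 (1.97 to 3.35). It was 4.36 after free RNA was subtracted. *Ccl3* in T cells rested on only 3 CD1 UMIs against 299 in NOD, a log2 ratio of 2.48 (0.92 to 4.77) that was 0.43 when mixed barcodes were given to a lineage. The CD1 level of 3.79 CPM was 2.10% of that of empty droplets, where CD1 endothelial cells were at 0.996%, and the ratio had no value once free RNA was subtracted, so the CD1 level was not shown to lie above background. In each lymphocyte class the 10 richest barcodes held a large part of the *Ccl4* UMIs, 50.8% in NOD and 45.9% in CD1 NK cells and 46.3% in NOD T cells.

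**Figure D2:**
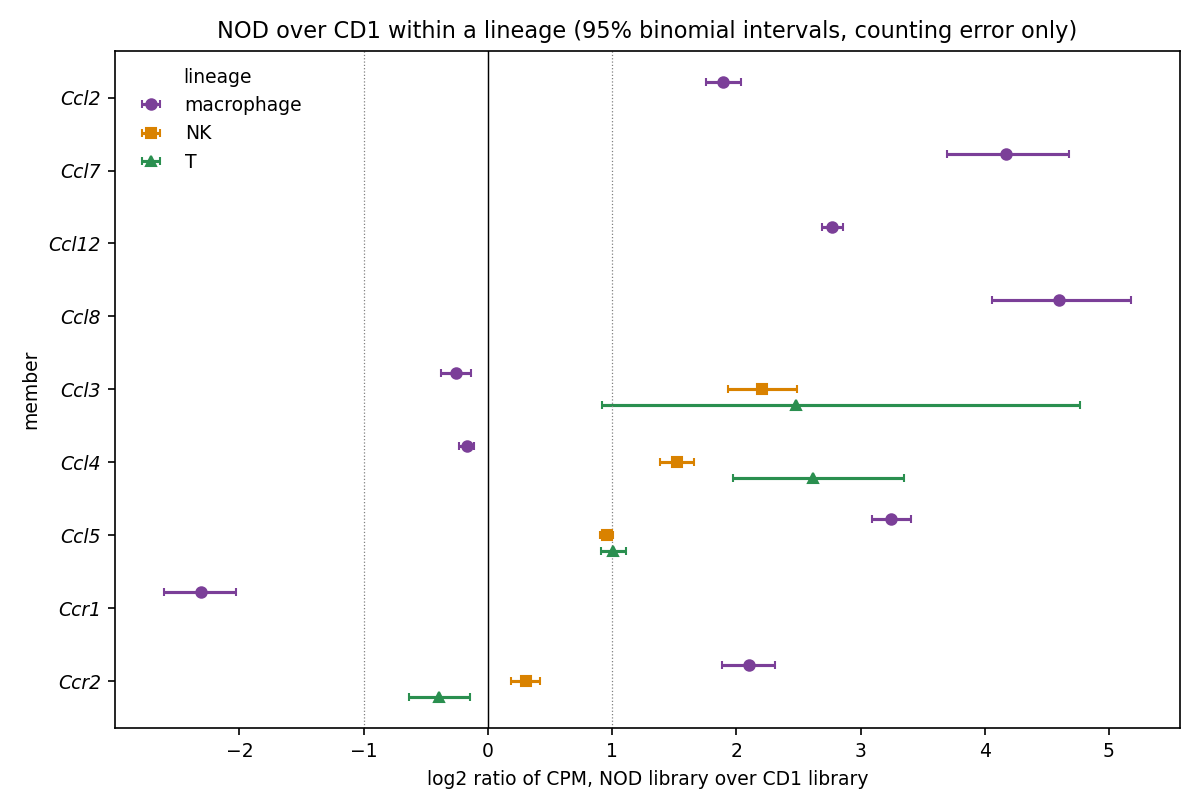
Log2 ratio of CPM in the NOD over the CD1 library for each gene with at least 20 UMIs in macrophages, NK cells or T cells, with 95% conditional binomial intervals for counting error; dotted lines mark a 2-fold difference. *Ccl3* and *Ccl4* lay just below 0 in macrophages and above 1 in NK and T cells, and *Ccr1* was the gene farthest to the left.

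The 9 genes were read against the background in the lymphocytes too. In NK cells, 2 of the 4 genes with at least 20 UMIs (*Ccl3* and *Ccl4*) were at least 2-fold higher and 0 of 4 at least 2-fold lower in NOD, where 5.36% and 4.12% of 11446 genes were. In T cells, 3 of 4 (*Ccl3*, *Ccl4* and *Ccl5*) were at least 2-fold higher and 0 of 4 lower, where 14.6% and 4.8% of 13010 genes were. Of the 1901 genes behind the 14.6%, 797 had 0 UMIs in CD1 T cells. That count held in part only, since the *Ccl5* log2 ratio of 1.01 was under 1 in 5 of 12 other settings (0.77 to 0.97) and *Ccl3* had the weak base given above. It was 1 of 4 (*Ccl4*) with mixed barcodes given to a lineage, and 1 of 3 (*Ccl4*) after subtraction of free RNA. In NK cells *Ccl4* was under 2-fold with mixed barcodes given to a lineage. The CD1 T cells held only 790891 UMIs, against 14103684 in NOD.

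*Ccl5*, a ligand of *Ccr1* that cytotoxic lymphocytes store and release, had 56995 UMIs in NOD and 8489 in CD1. NK cells had 10534 UMIs in NOD and 4995 in CD1, at 2708 CPM (2656 to 2760) and 1397 CPM (1358 to 1436), a log2 ratio of 0.96 (0.91 to 1.00). T cells had 30676 and 854 UMIs, at 2175 CPM (2151 to 2200) and 1080 CPM (1009 to 1155), a log2 ratio of 1.01 (0.91 to 1.11). The T/NK class lay above both in NOD, at 3185 CPM, and reached 1891 CPM in CD1. Thinned to 500 UMIs, 53.5% of NOD and 32.1% of CD1 NK cells and 31.1% and 26.4% of T cells held a *Ccl5* UMI.

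Among T cells, most *Ccl5* UMIs lay in barcodes with a UMI of *Cd8a* or *Cd8b1*, which mark cytotoxic T cells. In NOD these were 29.4% of T cells (568 barcodes) and held 79.4% of the T-cell *Ccl5* UMIs, and in CD1 they were 24.2% (22 barcodes) and held 55.3%. Their level was 5555 CPM in NOD and 2112 CPM in CD1, a log2 ratio of 1.39 (1.26 to 1.53). T cells with *Cd4* and neither *Cd8* gene stood at 510 CPM in 911 NOD barcodes and 506 CPM in 35 CD1 barcodes, a log2 ratio of 0.01 (-0.23 to 0.27). They held 11.7% of the T-cell *Ccl5* UMIs in NOD and 16.5% in CD1. The rest lay in T cells with a UMI of none of these genes, which were not examined as a subset. The *Ccl5* difference between the libraries was thus found in the *Cd8a* or *Cd8b1* barcodes and not in the *Cd4* barcodes at this depth, although the difference between these subsets was not tested. *Ccl4* was 232 CPM in the NOD and 44.8 CPM in the CD1 barcodes with *Cd8a* or *Cd8b1*, a log2 ratio of 2.37 (1.49 to 3.44). *Foxp3* barcodes, which mark regulatory T cells, were 210 in NOD with 492 CPM of *Ccl5* and 3 in CD1 with 0 UMIs.

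NK cells with *Eomes* or *Gzma*, genes of conventional NK cells, made up 71.3% of the lineage in NOD and 47.6% in CD1. *Ccl5* in them was 2895 CPM in NOD and 1388 CPM in CD1, a log2 ratio of 1.06 (1.00 to 1.12), whereas the remaining NK cells had 2054 CPM and 1408 CPM, a log2 ratio of 0.54 (0.45 to 0.64). The CD1 levels of these subsets were alike, and the NOD levels were not. *Ccl3* was higher in NOD in both, with log2 ratios of 1.94 (1.63 to 2.26) and 2.13 (1.5 to 2.80). A barcode falls outside a gate when its UMI was missed, and the median depth of the gated barcodes was 8540 UMIs in NOD and 10918 in CD1.

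**Figure D3:**
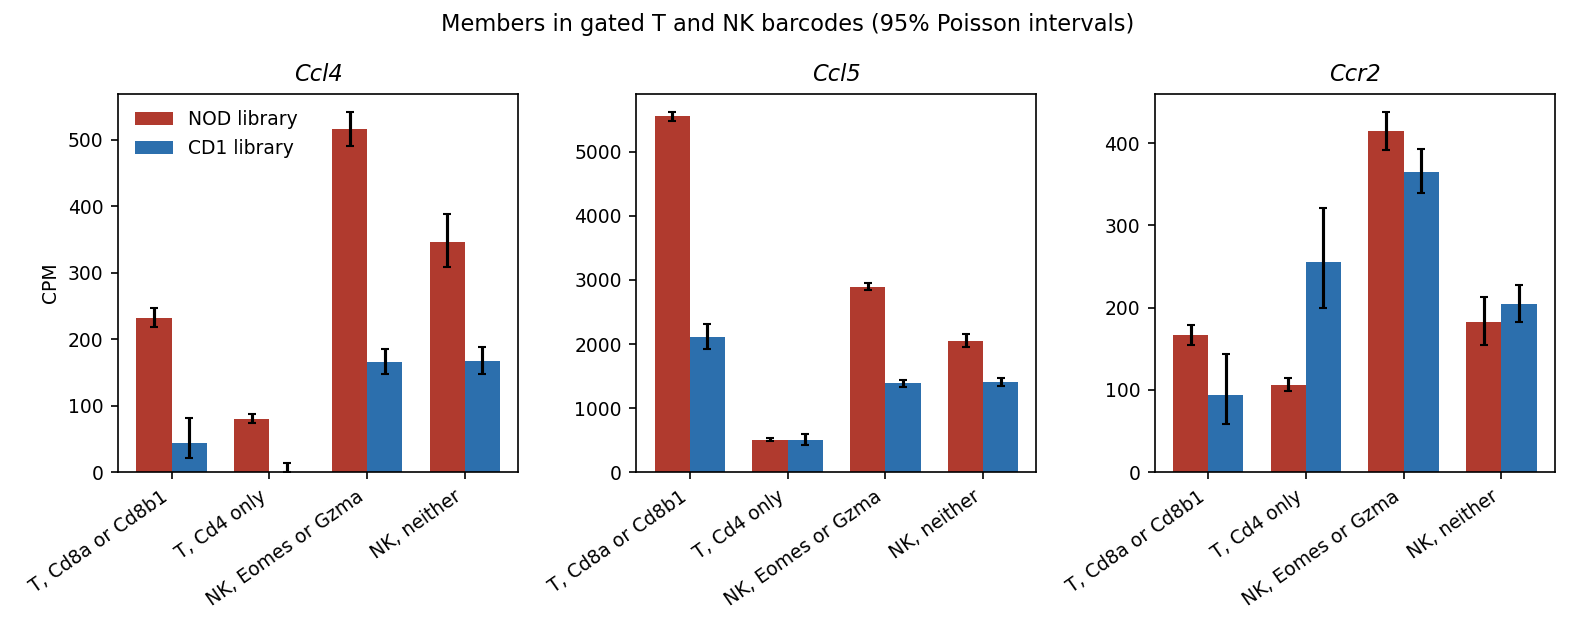
CPM of *Ccl4*, *Ccl5* and *Ccr2* in T cells with *Cd8a* or *Cd8b1*, T cells with *Cd4* only, and NK cells with and without *Eomes* or *Gzma*, in the NOD and CD1 libraries (bars, with 95% Poisson intervals). *Ccl5* was level between the libraries in *Cd4* T cells, at 510 and 506 CPM, and *Ccr2* was higher in CD1 in those cells.

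*Ccl5* also appeared in macrophages, with 930 UMIs in NOD and 502 in CD1, at 251 CPM (235 to 267) and 26.4 CPM (24.1 to 28.8), a log2 ratio of 3.25 (3.09 to 3.41). The barcode of 374 *Ccl5* UMIs described above made up 40.2% of the NOD macrophage count, and the ratio was 2.60 when the richest barcode of each library was left out. Free RNA was measured beside it. Empty droplets of 10 to 100 UMIs held 1702 CPM of *Ccl5* in NOD and 139 CPM in CD1, and the macrophage level was 14.7% and 19.0% of that. NOD endothelial and B cells, which should lack *Ccl5*, stood at 24.4 CPM and 22 CPM, or 1.43% and 1.29% of the empty-droplet level. Thinned to 500 UMIs, 10.0% of NOD macrophages held a *Ccl5* UMI against 1.99% of endothelial and 1.93% of B cells. The T list of 8 markers summed to 25.6 CPM in NOD and 4.26 CPM in CD1 macrophages, beside 28.6 and 1.74 CPM in endothelial cells. The NK list summed to 158 CPM in NOD and 162 CPM in CD1 macrophages, beside 23.7 and 8.18 CPM in endothelial cells. The part of engulfed or co-captured lymphocytes in the macrophage *Ccl5* was not tested. Dendritic-like barcodes had 289 UMIs in 5 of 26 NOD barcodes and 16 UMIs in 1 of 3 CD1 barcodes.

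The receptors went in opposite directions in macrophages. *Ccr1*, the receptor for *Ccl3*, *Ccl5* and *Ccl7*, had 103 UMIs in NOD macrophages and 2621 in CD1 macrophages, at 27.8 CPM (22.7 to 33.7) and 138 CPM (132 to 143). The log2 ratio was -2.31 (-2.61 to -2.03), a level 4.96-fold higher in CD1. At 500 UMIs per barcode, 0.597% of NOD (0.163 to 1.52) and 4.84% of CD1 macrophages (4.07 to 5.70) held a UMI, and at 2000 UMIs per barcode 3.96% of 429 NOD and 20.1% of 2138 CD1 macrophages did. *Ccr1* was spread over many CD1 barcodes, with at most 12 UMIs in any of them and 4.16% of the UMIs in the top 10.

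Outside macrophages, *Ccr1* was found in neutrophil-like barcodes, at 15 UMIs in 4 of 5 NOD and 11 UMIs in 3 of 3 CD1 barcodes (964 CPM, 540 to 1590, and 861 CPM, 430 to 1541). NOD B cells held 50 *Ccr1* UMIs in 26 of 776 barcodes, at 11 CPM (8.17 to 14.5), which was 154% of the empty-droplet level of 7.14 CPM. CD1 had only 8 B cells, with 0 UMIs. NK cells had 0 *Ccr1* UMIs in either library, and T cells had 3 in NOD and 9 in CD1. The macrophage/monocyte class went the other way from macrophages, with 37 UMIs in 8 of 12 NOD barcodes and 6 UMIs in 3 of 10 CD1 barcodes (219 CPM, 154 to 302, and 44.7 CPM, 16.4 to 97.3), a log2 ratio of 2.29 (1.03 to 3.83).

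*Ccr2* was found in lymphocytes as well as in myeloid cells. NK cells had 1412 UMIs in NOD and 1050 in CD1, at 363 CPM (344 to 382) and 294 CPM (276 to 312), a log2 ratio of 0.31 (0.19 to 0.42) that was 0.037 with lineages from joint clusters. T cells had 1979 and 146 UMIs, at 140 CPM (134 to 147) and 185 CPM (156 to 217), a log2 ratio of -0.40 (-0.64 to -0.14). Macrophages had 334 and 399 UMIs, at 90.0 CPM (80.6 to 100.2) and 21.0 CPM (19.0 to 23.1), a log2 ratio of 2.10 (1.89 to 2.32). The share of macrophages with a *Ccr2* UMI after thinning to 500 UMIs was 2.24% (1.26 to 3.67) in NOD and 0.967% (0.639 to 1.40) in CD1, and the 10 richest barcodes held 46.7% and 30.1% of the UMIs. The macrophage level was 58.5% of that of empty droplets in NOD and 44.7% in CD1, where endothelial cells were at 1.29% and 2.91%. The monocyte list of 8 markers summed to 45.8 CPM in NOD macrophages and 11.7 CPM in CD1 macrophages, and its part in the *Ccr2* difference was not tested. The macrophage/monocyte class had the highest level among classes of at least 10 barcodes in both libraries, 994 CPM (849 to 1156) in NOD and 537 CPM (420 to 676) in CD1.

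The *Ccr2* direction differed within T cells. Barcodes with *Cd8a* or *Cd8b1* had 167 CPM in NOD and 94 CPM in CD1 (21 UMIs), a log2 ratio of 0.83 (0.20 to 1.53), whereas those with *Cd4* only had 106 CPM and 255 CPM (71 UMIs), a log2 ratio of -1.26 (-1.62 to -0.89). In NK cells with *Eomes* or *Gzma* the level was 415 CPM in NOD and 365 CPM in CD1, and in the remaining NK cells it was 183 and 204 CPM. *Ccr2* was therefore higher in the *Eomes* or *Gzma* barcodes in both libraries.

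Unassigned barcodes formed a further source of *Ccr2*. They held 288 of 5769 UMIs in NOD and 340 of 2584 in CD1, in 149 of 853 and 64 of 525 barcodes. The genes with the highest fold in these *Ccr2* barcodes included *Stab2*, *Ctnna2*, *Dach2* and *Il1rl1* in both libraries. *Il1rl1*, the interleukin-33 receptor, had a UMI in 39 NOD and 51 CD1 barcodes, and *Gata3*, a transcription factor of type 2 lymphocytes, in 65 and 48. These barcodes met no marker list and are not named as a cell type, and *Il1rl1* and *Gata3* were chosen after their values were seen.

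The lineages that held each transcript differed between the libraries. Macrophages held 91.0% of the *Ccl12* UMIs in NOD and 91.1% in CD1, so this ligand kept its source. For *Ccl4*, macrophages held 87.3% in CD1 and only 31.4% (30.4 to 32.4) in NOD, where T cells held 24.2%, NK cells 21.6% and the T/NK class 9.12%. *Ccl3* had the same pattern, with 84.6% in CD1 macrophages and 31.9% in NOD macrophages, and 2.77% and 32.1% in NK cells. *Ccl5* UMIs lay mostly in NK cells in CD1 (58.8%) and in T cells in NOD (53.8%). *Ccr1* went from 88.3% in macrophages in CD1 to 40.2% (34.2 to 46.5) in NOD, and *Ccr2* from 40.6% in NK cells and 5.65% in T cells in CD1 to 24.5% and 34.3% in NOD. Under 6 other settings the macrophage share in NOD stayed between 31.3% and 34.1% for *Ccl4* and between 31.5% and 35.3% for *Ccl3*. It ran from 51.1% to 84.0% for *Ccl2* and from 39.2% to 97.1% for *Ccl7*, and the T-cell share of *Ccl5* in CD1 from 7.30% to 18.8%.

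**Figure D4:**
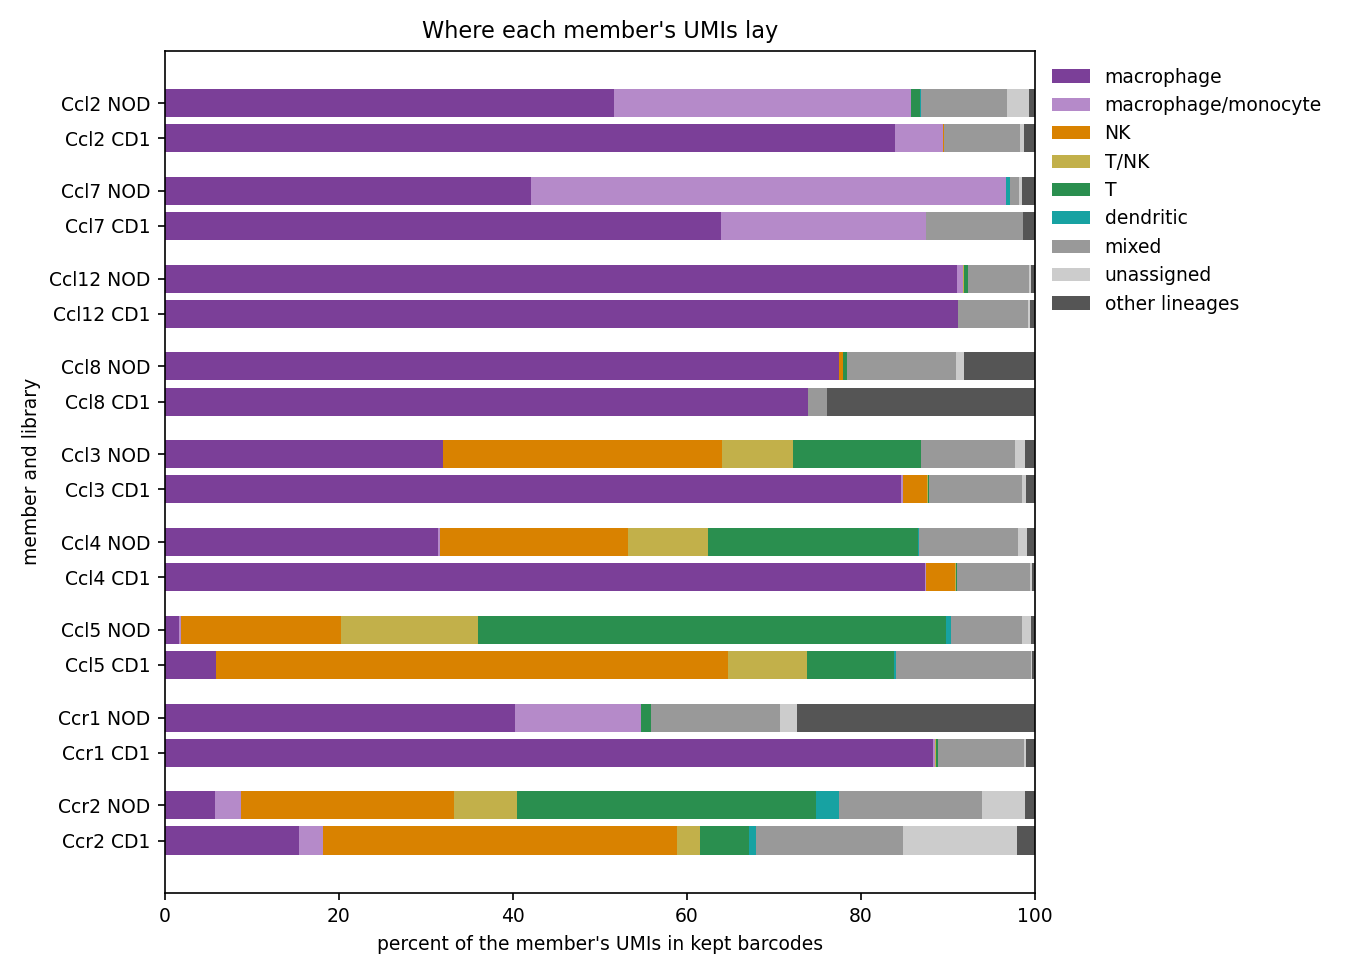
Percent of the UMIs of each gene that lay in each class of barcodes, for the NOD and CD1 libraries (stacked bars, 100% is all kept barcodes). Macrophages (dark purple) held 91.0% and 91.1% of *Ccl12* but 31.4% and 87.3% of *Ccl4* in NOD and CD1.

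The numbers of cells and the levels per lineage pulled the whole-library values apart. Over all kept barcodes *Ccl5* was higher in NOD by a log2 ratio of 2.93 (2.90 to 2.97), *Ccr2* by 1.34 (1.28 to 1.41), *Ccl12* by 0.60 (0.52 to 0.68) and *Ccl2* by 0.42 (0.31 to 0.54), and *Ccl3* and *Ccl4* were lower, at -1.02 (-1.10 to -0.94) and -0.87 (-0.90 to -0.83). The CD1 level was then recomputed with each CD1 lineage weighted by its NOD share of UMIs. At equal shares the log2 ratio was 0.06 for *Ccr2* and 1.05 for *Ccl5*, it rose to 2.32 for *Ccl12* and 1.69 for *Ccl2*, and it changed sign to 0.36 for *Ccl3* and 0.58 for *Ccl4*. *Ccr1* stayed lower in NOD, at -3.35 as measured and -2.0 at equal shares. Under 6 other settings of the lineages the value at equal shares ran from -0.31 to 0.11 for *Ccr2*, from 0.18 to 0.63 for *Ccl3* and from 0.45 to 0.70 for *Ccl4*. *Ccl7* and *Ccl8* were higher in NOD either way, at 2.60 and 3.29 for *Ccl7* and 2.36 and 1.93 for *Ccl8*, but at equal shares they moved more with the setting, from 2.39 to 4.57 for *Ccl7* and from 1.31 to 3.50 for *Ccl8*. *Ccl2* ran from 1.17 to 2.25. The weighting rests on the marker rule and on 1 pool of glands per strain. For *Ccl8* and *Ccl7* it also rests on small CD1 classes. The 13 CD1 fibroblasts held 11 of the 46 CD1 *Ccl8* UMIs, and their share of UMIs went from 0.227% to a weight of 1.10%. The 10 CD1 macrophage/monocyte barcodes held 17 of the 72 CD1 *Ccl7* UMIs.

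**Figure D5:**
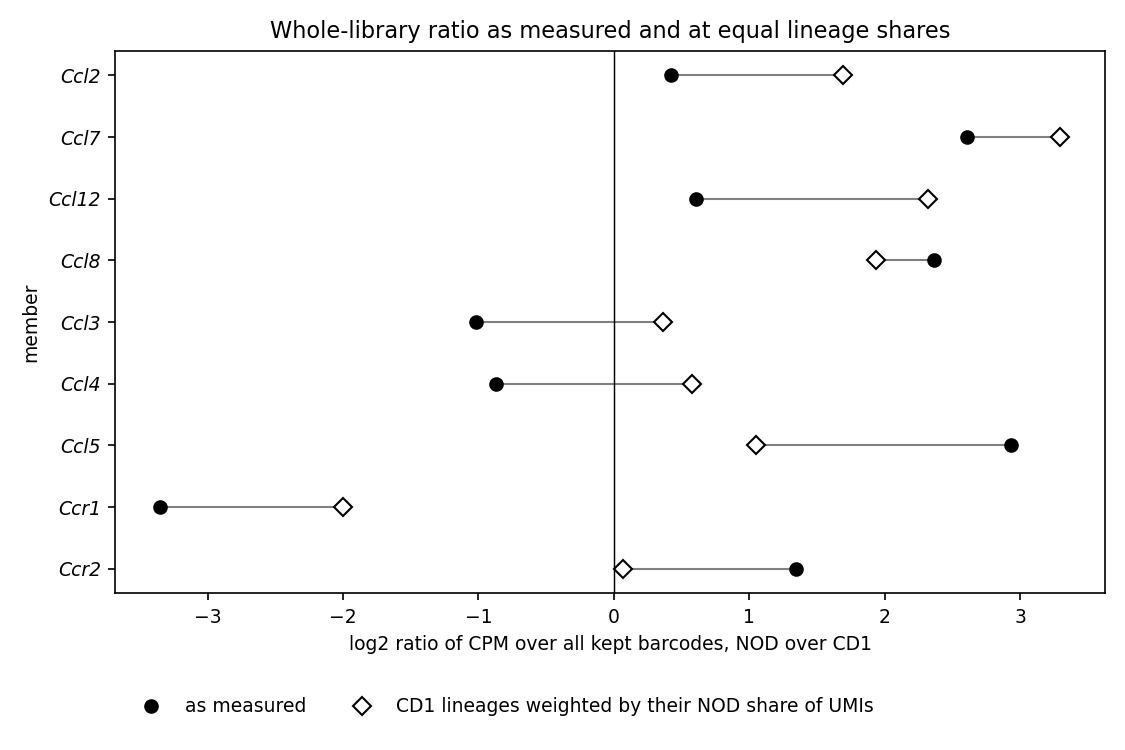
Log2 ratio of CPM over all kept barcodes, NOD over CD1, as measured (filled circles) and after each CD1 lineage was weighted by its NOD share of UMIs (open diamonds). *Ccl3* and *Ccl4* crossed 0, from -1.02 to 0.36 and from -0.87 to 0.58, and *Ccr2* went from 1.34 to 0.06.

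The ligands were found together in the same barcodes to unequal degrees. Of the macrophages with a *Ccl3* UMI, 86.5% in NOD and 84.9% in CD1 also held *Ccl4*, whereas 24.9% and 35.1% of those without *Ccl3* did. The barcodes with *Ccl3* were deeper, with medians of 9241 against 2066 UMIs in NOD and 9119 against 2816 in CD1. The *Ccl4* level, which takes depth into account, was 1159 CPM with and 322 CPM without *Ccl3* in NOD, and 1129 and 387 CPM in CD1. Pearson's r of log2(CPM + 20) of the pair was 0.58 over 670 NOD and 0.53 over 2791 CD1 macrophages, as a description of barcodes that share a library. *Ccl12* went with *Ccl2* in NOD, at 1206 CPM in macrophages with a *Ccl2* UMI and 452 CPM in those without, and in CD1 at 222 and 78.1 CPM. *Ccl8* was apart, with Pearson's r of 0.01 in NOD and 0.02 in CD1 against *Ccl12*.

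The summed levels of the receptors differed between macrophages with and without *Ccl12*. NOD macrophages with a *Ccl12* UMI had 56.8 CPM of *Ccr2* and those without had 145 CPM, and in CD1 the levels were 16.5 and 23.4 CPM. The share of NOD macrophages with a *Ccr2* UMI was 13.4% with and 14.3% without *Ccl12*, at median depths of 7281 and 2080.5 UMIs. Pearson's r of *Ccl12* and *Ccr2* was -0.04 in NOD and -0.01 in CD1. *Ccr1* was 35.5 CPM with and 15.0 CPM without *Ccl12* in NOD, and 151 and 131 CPM in CD1. In NOD T cells 65.9% of the 727 barcodes with *Ccr2* also held *Ccl5*, beside 53.8% of all T cells, and in CD1 37.8% of 45 did, beside 45.1% of all.

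Dividing macrophages, with a UMI of *Mki67* or *Top2a*, numbered 53 in NOD and 259 in CD1 and kept the directions of the whole lineage. *Ccl12* was 1163 CPM in NOD and 103 CPM in CD1, a log2 ratio of 3.50 (3.29 to 3.71), and *Ccr1* was 54.6 and 146 CPM, a log2 ratio of -1.42 (-2.05 to -0.85). Macrophages with *Folr2*, *Lyve1* or *Cd163*, markers of perivascular resident macrophages, were 5 in NOD and 31 in CD1. In CD1 these 31 barcodes had 232 CPM of *Ccl2* (70 UMIs in 8 barcodes), *Ccl12* at 239 CPM (72 UMIs in 9) and *Ccr2* at 103 CPM (31 UMIs in 3), against 50, 106 and 19.6 CPM in the other CD1 macrophages. A few barcodes thus carried these levels. The 5 NOD barcodes had 1 *Ccl2* UMI (40.6 CPM) and 5 *Ccl12* UMIs (203 CPM), log2 ratios of -2.52 (-7.84 to 0.01) and -0.24 (-1.90 to 1.05) to CD1. The 5 NOD barcodes held 12 of the 161 *Ccl8* UMIs, all in 1 barcode.

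Of the 25 other CC ligand, receptor and scavenger genes listed, 10 had at least 20 UMIs in macrophages, where 1 (*Ccr9*, from 11 NOD and 26 CD1 UMIs) was at least 2-fold higher and 1 (*Ccr6*) at least 2-fold lower in NOD. Among all genes in macrophages, 7.18% were at least 2-fold higher and 5.6% at least 2-fold lower. *Ccr6*, the receptor of *Ccl20*, was 27.2 CPM in NOD and 58 CPM in CD1 macrophages, and 223 CPM in NOD B cells. The myeloid ligands *Ccl6* and *Ccl9* were 91.9 and 60.6 CPM in NOD and 68.4 and 36.5 CPM in CD1 macrophages.

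In T cells, 11 of the 25 genes had at least 20 UMIs. Of these, 3 (*Ccr4*, *Ccr6* and *Ccr8*) were at least 2-fold higher and 1 (*Ccl1*) at least 2-fold lower in NOD. Among all genes in T cells, 14.6% were at least 2-fold higher and 4.8% at least 2-fold lower. *Ackr4* had 25 UMIs in NOD and 0 in CD1, where 3 UMIs would be more than its NOD level, so it is not counted. The 14.6% does include genes with 0 CD1 UMIs, 797 of 1901. *Ccl1*, a ligand of *Ccr8*, was 30.8 CPM in NOD and 263 CPM in CD1 T cells, a log2 ratio of -3.10 (-3.34 to -2.85). In NK cells 7 had at least 20 UMIs, with 0 higher and 2 (*Ccl1* and *Ccr8*) at least 2-fold lower in NOD. Among all genes in NK cells, 5.36% were at least 2-fold higher and 4.12% at least 2-fold lower. *Ccr8* there rested on 7 and 13 UMIs. In stroma, *Ccl11*, the eosinophil ligand, was 696 CPM in NOD and 561 CPM in CD1 fibroblasts, and *Ccl21a*, the lymphatic ligand of *Ccr7*, had 95 UMIs in CD1 endothelial cells and 0 in NOD, an at least 9.55-fold lower level in NOD at a floor of 3 UMIs.

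The genes most like each of the 9, by Pearson's r of log2(CPM + 20) over 19 profiles of a lineage in a library among 16471 genes, followed its main source. *Ccl3* was most like *Fcgr3* (r = 0.90) and *Ccl4* (r = 0.90), and *Ccl5* was close to *Klrk1* (r = 0.92) and *Cxcr3* (r = 0.91), receptors of NK cells and activated T cells. *Ccr1* was most like *Lilra5* (r = 0.92), *Csf1r* (r = 0.91) and *Klra2* (r = 0.90), and *Ccr2* was most like *S100a4* (r = 0.92). *Ccl7* was most like *Il1b* (r = 0.92) and *Ccl2* most like *Masp1* (r = 0.92). The genes closest to *Ccl12* (*Mmp13*, r = 0.99) and *Ccl8* (*C5ar2*, r = 0.99) had only 65 and 170 UMIs. Profiles of 1 library share its depth and free RNA, and these likenesses are descriptions.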

How the data were processed

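Per the submitters' processing notes, the authors made the UMI counts with Cell Ranger (v8.0.0) on GRCm39, and those notes also name Seurat (v5.0.1) and R (v4.3.1). The strand setting of the counting was not given in the sources used here. The deposited matrices hold raw counts for all barcodes, 1298073 in NOD and 1331542 in CD1, with 52790319 and 56483149 UMIs. Barcodes with at least 500 UMIs and 300 genes were kept. Each was given the lineage with most detected markers, at least 3 and 2 more than any other list, with at most 2 markers of an unrelated list. No doublet caller was used beyond leaving out mixed barcodes, and the Scrublet scores in scanpy (v1.11.5) served as an alternative. The UMIs of each lineage were summed per library and divided by the UMIs of that lineage (CPM). Intervals were exact Poisson for CPM, Clopper-Pearson for shares and conditional binomial for ratios, at 95%. The floor for a count of 0 was 3 UMIs. Python (v3.11.15) and scipy (v1.17.1) were used, and the fold and interval calculations were tested on simulated counts. Those counts were Poisson, as the intervals assume, so the test checks the calculation and cannot cover UMIs clumped in single barcodes. The named genes were the 9 listed by symbol, plus 25 other CC genes and up to 3 most alike genes for each, of which some are not reported here. All lists and members were chosen with earlier results of these data known. The sample labels and the paper differ on the number of mice pooled and on the digestion enzymes (both used dispase, with Liberase TL in the labels and with collagenase and hyaluronidase in the paper). Promoter windows were read from RefSeq on GRCm38.p6, which is not the build of the counts, so no count was joined to a coordinate.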

Additional observations from a re-analysis of the deposited data

Results flagged for a closer look

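The NOD over CD1 ratios of macrophages, NK cells and T cells were compared. For *Ccl3*, *Ccl4* and *Ccr2* the ratio lay above 0 in one of them and below 0 in another, by intervals away from 0. The macrophage log2 ratios of *Ccl3* and *Ccl4* were only -0.25 and -0.17. *Ccl2*, *Ccl7*, *Ccl8* and *Ccl12* had no ratio with an interval in NK or T cells and could not qualify. How often genes at large did so was not computed, so no trait of the 9 genes is read from it. Other classes were outside this comparison, such as fibroblasts, where *Ccl2* and *Ccl8* were lower in NOD, and macrophage/monocyte barcodes, where *Ccr1* was higher. With 1 library per strain none of these differences was tested. *Ccl3* was higher in NOD NK cells and, against 3 CD1 UMIs not shown to lie above background, in NOD T cells. It was lower in NOD macrophages, and its log2 ratio exceeded the macrophage value by 2.46 in NK cells and by 2.74 in T cells. *Ccl4* did the same, with log2 ratios 1.69 above macrophages in NK cells and 2.79 above macrophages in T cells. *Ccr2* was lower in NOD T cells, and its log2 ratio was 0.70 higher in NK cells and 2.50 higher in macrophages than in T cells.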

How the results depend on the processing

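No paired analysis was possible because each strain had 1 library. Of the log2 ratios under other settings, 159 stayed within the counting interval of the reported value, 43 moved further and 0 changed sign. Of the other values, 49 lineage shares of UMIs moved and 59 did not, 25 whole-library ratios moved and 29 did not, and all 6 counts of genes moved. The 18 shares of barcodes had no range within which they would count as unmoved, so no such count is given for them. With mixed barcodes given to the lineage with most markers, the log2 ratio in macrophages was 2.36 for *Ccl2*, 4.70 for *Ccl7* and 2.66 for *Ccl12*, and 0.77 for *Ccl5* in T cells. With lineages from joint clusters it was 1.66 for *Ccl2*, -0.42 for *Ccl3*, -0.30 for *Ccl4*, 3.87 for *Ccl5* and 2.53 for *Ccl12* in macrophages, 1.12 for *Ccl5* in T cells and 0.037 for *Ccr2* in NK cells. As a mean of the CPM of each barcode it was 1.44 for *Ccl2*, -0.42 for *Ccl3*, -0.38 for *Ccl4*, 2.92 for *Ccl5*, 2.83 for *Ccl7* and 6.05 for *Ccl8* in macrophages. With at most 10% mitochondrial UMIs *Ccl8* was 3.95. Further settings were chosen after seeing the data. With at least 6 markers *Ccl8* was 3.95 and *Ccl5* 3.48 in macrophages and *Ccl5* 0.83 in T cells. Without the richest barcode of each library *Ccl7* was 3.31 and *Ccl5* 2.60. Thinned to 2000 UMIs, *Ccl2* was 1.52, *Ccl5* 2.95, *Ccl7* 2.93 and *Ccl8* 3.90. The median log2 ratio that median-of-ratios scaling removed was 0.05 in macrophages, 0.09 in T cells and 0.02 in NK cells. At a minimum of 50 UMIs per gene, 543 genes were at least 2-fold higher and 442 lower in NOD macrophages (1019 and 795 at 20 UMIs), 1176 and 358 in T cells (1901 and 624), and 310.0 and 234 in NK cells (613 and 472), from fewer genes tested. The cause of the other shifts was not tested. Depth limited *Ccl3* and *Ccl4* in CD1 T cells, which held 3 and 19 UMIs, and *Ccl7* and *Ccl8* in CD1 macrophages, with 46 and 34.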

Other observations

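Barcodes classed as mixed, which entered no lineage comparison, held part of each transcript. They had 9.90% of the *Ccl2* UMIs in NOD and 8.67% in CD1, 16.3% and 16.9% of the *Ccr2* UMIs, 8.16% and 15.5% of the *Ccl5* UMIs, and 12.5% and 2.17% of the *Ccl8* UMIs. 1 mixed CD1 barcode of 31421 UMIs, with 5 macrophage and 2 monocyte markers, held 37 *Ccl2* and 35 *Ccr2* UMIs.

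Lymphocytes showed the pairing of *Ccl3* and *Ccl4* as well. Of the NK cells with a *Ccl3* UMI, 72.2% in NOD and 68.8% in CD1 also held *Ccl4*, and in NOD T cells 69.7% of 109 did. *Ccl4* in NOD T cells was 1007 CPM with and 69.0 CPM without *Ccl3*. *Foxp3* barcodes of NOD held 22.9% of the T-cell *Ccl4* UMIs in 10.9% of the T cells, but these 476 UMIs lay in only 21 barcodes. Just 10.0% of the *Foxp3* barcodes held a *Ccl4* UMI, beside 44.9% of those with *Cd8a* or *Cd8b1* and 369 of all 1932 NOD T cells.

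In endothelial cells *Ackr1*, a decoy receptor that carries chemokines across venules, was 8.49 CPM in NOD and 2.40 CPM in CD1, a log2 ratio of 1.82 (1.20 to 2.45) from 47 and 44 UMIs. *Ccrl2*, an atypical receptor, was 70.5 and 58 CPM there, a log2 ratio of 0.28 (0.11 to 0.45).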
